A study of Macaca mulatta with 6 samples.

Results

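The genes described here detect DNA damage, signal it and repair it. A list of 35 such genes covers the damage kinases and checkpoint kinases, the proteins that mark and organise a break, and the enzymes of homologous recombination, end joining, and base excision, nucleotide excision and mismatch repair. A gene was taken as measured where the annotation of the array gave its symbol as the 1 symbol of a probe set, and 22 of the 35 were measured, among 14132 named genes in all. The other 13 were not analysed here. They are ATM, ATR, RAD50, MRE11A, NBN, H2AFX, XRCC2, LIG4, XRCC1, LIG1, APEX1, POLB and DDB1, so the list lacks both apical kinases ATM and ATR and all 3 subunits of the MRN break sensor. The 22 measured genes had 41 probe sets, and the brightest one, by mean signal over the 6 arrays, stood for the gene.

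The retinas came from 3 male rhesus macaques aged 8 to 10 years. In each animal the intraorbital optic nerve of 1 side received a prescribed dose of 15 Gy by gamma knife surgery, a stereotactic method that focuses many beams of gamma rays. Treated retinas were those on the irradiated side (n = 3), where the eyeball itself took 3 Gy, and control retinas were those of the opposite side of the same animals (n = 3), where the eyeball took 1 Gy. Control retinas were therefore exposed to stray radiation as well, and irradiation of the nerve and of the eye cannot be told apart. The temporal side of each retina, without the pigment epithelium, was collected at 24 h and hybridized to an Affymetrix Rhesus Macaque Genome Array, 1 array per retina. Values are log2 signals, and differences are the treated minus the control retina of the same replicate number. Retinas of the same number were assumed to be those of 1 animal, because the sample titles give the number only. The values were fitted with limma with the replicate number as a block. Standard errors, intervals and p-values from limma combine the spread between pairs with a variance prior, the spread over all probe sets at similar signal.

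The kinases ATM, ATR and DNA-PK respond to damaged DNA, largely by modifying proteins that the cell already holds. Among them they phosphorylate the checkpoint kinases, the histone variant H2AX and scaffold proteins at a break. They also stabilise p53, which then switches on transcription of its target genes. Cells that no longer divide, such as neurons of the adult retina, rely mainly on end joining for double-strand breaks, because homologous recombination copies the sister chromatid of a replicated chromosome. Oxidised and single-strand lesions are handled by base excision repair, and bulky lesions by nucleotide excision repair.

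Array medians lay between 6.44 and 6.98 in treated retinas and between 6.69 and 7.03 in control retinas, on the log2 scale. The tissue was checked with photoreceptor genes. SAG, which encodes arrestin of the rods, had log2 signals of 15.25, 15.30 and 15.53 in treated retinas and 15.44, 15.50 and 15.54 in control retinas. GNAT1, the rod transducin subunit, had 14.78, 14.70 and 14.84 in treated retinas and 14.96, 14.98 and 15.01 in control retinas. Both stood far above the array medians in every retina. The array of the treated retina of replicate 2 gave the lowest of the 6 values at 27.3% of all probe sets and at 12 of the 41 probe sets of the list (29.3%), against 13.0% to 16.3% of all probe sets on the other 5 arrays. Retina is a mixture of cell types, and in such bulk samples fewer cells of a type and less RNA per cell cannot be told apart.

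No gene of the list passed the test after Benjamini-Hochberg adjustment over all probe sets. The smallest adjusted p from limma was 0.716 at the brightest probe sets, where 0.212% of all named genes passed. Over all 41 probe sets it was 0.655, at a dimmer probe set of PRKDC that was lower in treated retinas. At an unadjusted p under 0.05, 1 of the 22 genes was higher in treated retinas, PARP2, and 0 were lower, where 5.02% of all named genes were higher and 3.01% were lower at that threshold. The log2 fold change was above 0 for 13 of the 22 genes, against 55.5% of all named genes, and its median was 0.040, against 0.032 over all named genes. Within replicates 1, 2 and 3 the median of the list was 0.075, 0.105 and 0.016, where that of all named genes was 0.036, 0.069 and −0.004. In counts and median the list thus lay close to the array as a whole.

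**Figure D1:**
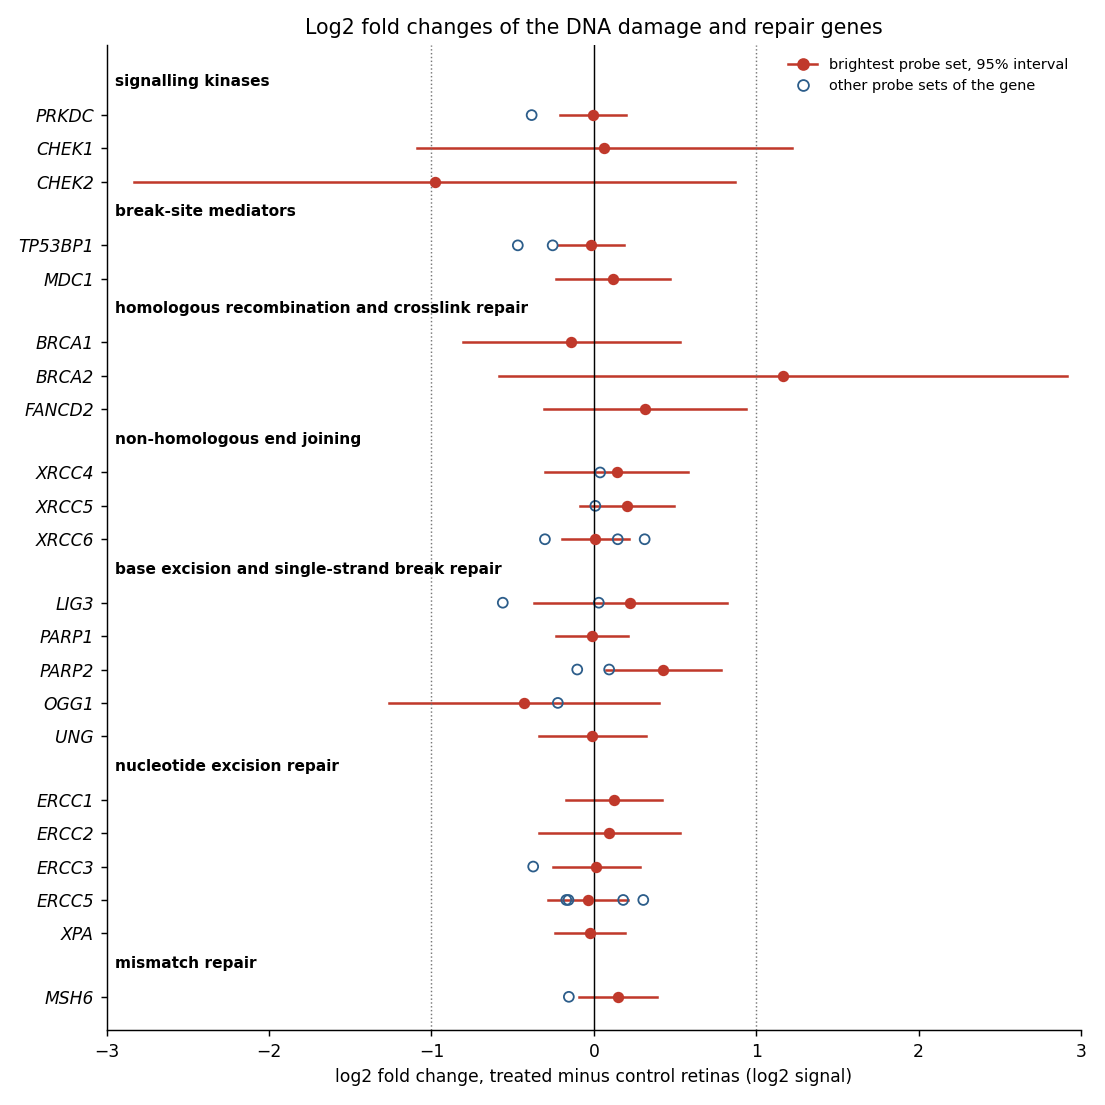
Log2 fold change (treated minus control retina) of the 22 measured genes, ordered by role. Filled points and bars are the brightest probe set with its 95% confidence interval from the limma fit to 3 pairs of retinas. Open points are other probe sets of the gene, and dotted lines mark a 2-fold change. The bars of CHEK1, CHEK2, BRCA2 and OGG1 cross a dotted line, and those of the other 18 genes do not.

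The precision of the fit bounds these differences, as far as its variance prior suits these data. The intervals were counted in the main fit only. For 18 of the 22 genes the 95% confidence interval lay within a 2-fold change in either direction, which held for 65.0% of all named genes. Within a 1.5-fold change it lay for 14 genes, and for 46.8% of all named genes. The 4 genes whose interval reached past 2-fold were CHEK1, CHEK2, BRCA2 and OGG1. The standard error of the log2 fold change ran from 0.0867 for TP53BP1 to 0.795 for CHEK2, with a median of 0.146, against 0.181 over all named genes. The size of the log2 fold change, whatever its sign, had a median of 0.121, against 0.173 over all named genes. These comparisons were not matched for signal, and 19 of the 22 genes lay at or above the median signal of all probe sets.

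Dim probe sets gave the widest intervals. The variance prior follows the signal, so part of this pattern is set by the fit itself. CHEK1, CHEK2 and BRCA2 were the 3 genes whose mean signal lay below the median of all probe sets, 6.69 on the log2 scale, and their standard errors were 0.496 to 0.795. The other 19 genes had standard errors of 0.0867 to 0.357. Over all named genes the median standard error was 0.565 at a mean log2 signal of 5 to 6 and 0.108 at 10 to 11.

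**Figure D2:**
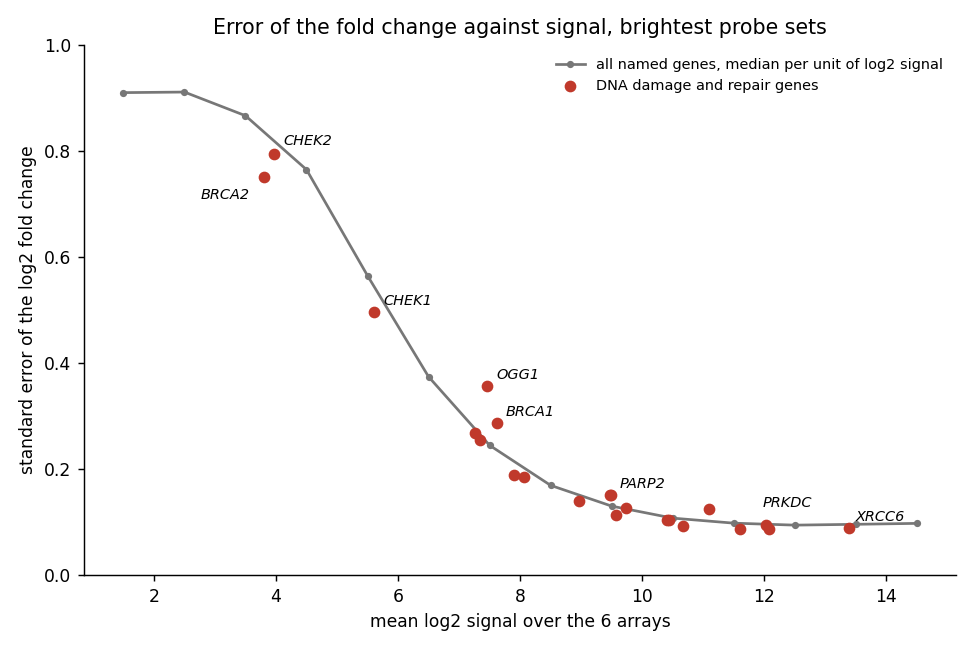
Standard error of the log2 fold change against mean log2 signal for the 22 genes of the list, with a line for the median of all named genes per unit of signal. The error is largest for CHEK2, BRCA2 and CHEK1 at the dim end, and the points lie near the line. The fit itself ties the error to signal through its variance prior.

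Of the kinases that carry the damage signal, PRKDC was the brightest. It encodes the catalytic subunit of DNA-PK, which is recruited to broken ends by the Ku proteins. Its log2 signals were 12.01, 12.14 and 12.10 in treated retinas and 11.93, 12.20 and 12.13 in control retinas, so the groups overlapped and the fold was 0.997. The 95% confidence interval of its log2 fold change was −0.21 to 0.20. A dimmer probe set of PRKDC read 10.55, 10.23 and 10.63 in treated retinas and 10.77, 10.86 and 10.92 in control retinas. Every treated retina lay below every control retina there. The log2 fold change was −0.38 ± 0.114 (SE, n = 3 pairs), with an unadjusted limma p of 0.0106 and an adjusted p of 0.655. The brighter probe set did not share that difference. With the mean over the probe sets of PRKDC the log2 fold change was −0.19, with an unadjusted limma p of 0.0727.

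The checkpoint kinases were dim. CHEK1, which acts below ATR to hold the cell cycle, had log2 signals of 5.73, 5.84 and 5.37 in treated retinas and 5.61, 5.38 and 5.75 in control retinas. The groups overlapped fully, and the interval of its log2 fold change was −1.09 to 1.22. CHEK2, which acts below ATM, read 3.47, 3.44 and 3.54 in treated retinas and 4.36, 5.54 and 3.49 in control retinas. Control replicates 1 and 2 stood above the treated retinas and control replicate 3 among them, and the log2 fold change was −0.98 ± 0.795 (SE, n = 3 pairs) with an adjusted p of 0.806. The 95% confidence interval of CHEK2 ran from −2.83 to 0.87, so a level more than 2-fold lower in treated retinas lay within the interval of either kinase.

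Of the proteins that assemble at a break, TP53BP1 and MDC1 were measured. TP53BP1, a chromatin reader that favours end joining, had log2 signals of 11.39, 11.73 and 11.64 in treated retinas and 11.39, 11.72 and 11.70 in control retinas. The retinas of each pair were almost level at this probe set, and the interval of the log2 fold change was −0.22 to 0.18. A second probe set of TP53BP1 read 9.78, 9.82 and 10.26 in treated retinas and 9.96, 10.13 and 10.54 in control retinas. It was lower in 3 of 3 pairs, with a log2 fold change of −0.25 ± 0.103 (SE), an unadjusted limma p of 0.0403 and an adjusted p of 0.734, although the groups overlapped. The third and dimmest probe set had a log2 fold change of −0.47 ± 0.317 (SE), so all 3 estimates were below 0, and with the mean over the probe sets of TP53BP1 it was −0.25 with an unadjusted limma p of 0.0756. MDC1, the scaffold that binds phosphorylated H2AX, had 9.78, 9.60 and 9.20 in treated retinas and 9.70, 9.13 and 9.38 in control retinas, with a log2 fold change of 0.12 ± 0.151 (SE).

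Of the homologous recombination and crosslink repair genes 3 of 4 were measured, and their median log2 fold change was 0.315 with wide errors. BRCA1, which promotes resection and recombination, differed in sign between pairs. Its log2 signals were 8.30, 6.57 and 7.77 in treated retinas and 8.09, 7.48 and 7.49 in control retinas. The treated retina was above its control in replicates 1 and 3 and below it in replicate 2, and the log2 fold change was −0.14 ± 0.287 (SE, n = 3 pairs).

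BRCA2, which acts in strand exchange during recombination, had the largest log2 fold change of the list. Its log2 signals were 5.33, 2.66 and 5.15 in treated retinas and 4.42, 1.52 and 3.71 in control retinas. The treated retina was above its control in 3 of 3 pairs, by 0.91, 1.14 and 1.44. The groups overlapped because the pair means differed by more, which the block for replicate number takes out of the fit. The fold was 2.24 with a 95% confidence interval of 0.668 to 7.53 and an adjusted p of 0.769. The size of this estimate rested on dim values. With log2 values under 5 raised to 5, the log2 fold change of BRCA2 was 0.16. Its unadjusted limma p was 0.161, and 0.00608 without the trend of the variance with signal, where the adjusted p was 0.854. The wide interval thus reflects the variance prior at dim signal more than the spread of the 3 differences. FANCD2, which is ubiquitinated at stalled forks and crosslinks, read 7.81, 7.26 and 7.17 in treated retinas and 7.36, 6.65 and 7.29 in control retinas, a log2 fold change of 0.31 ± 0.268 (SE) with an adjusted p of 0.817.

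**Figure D3:**
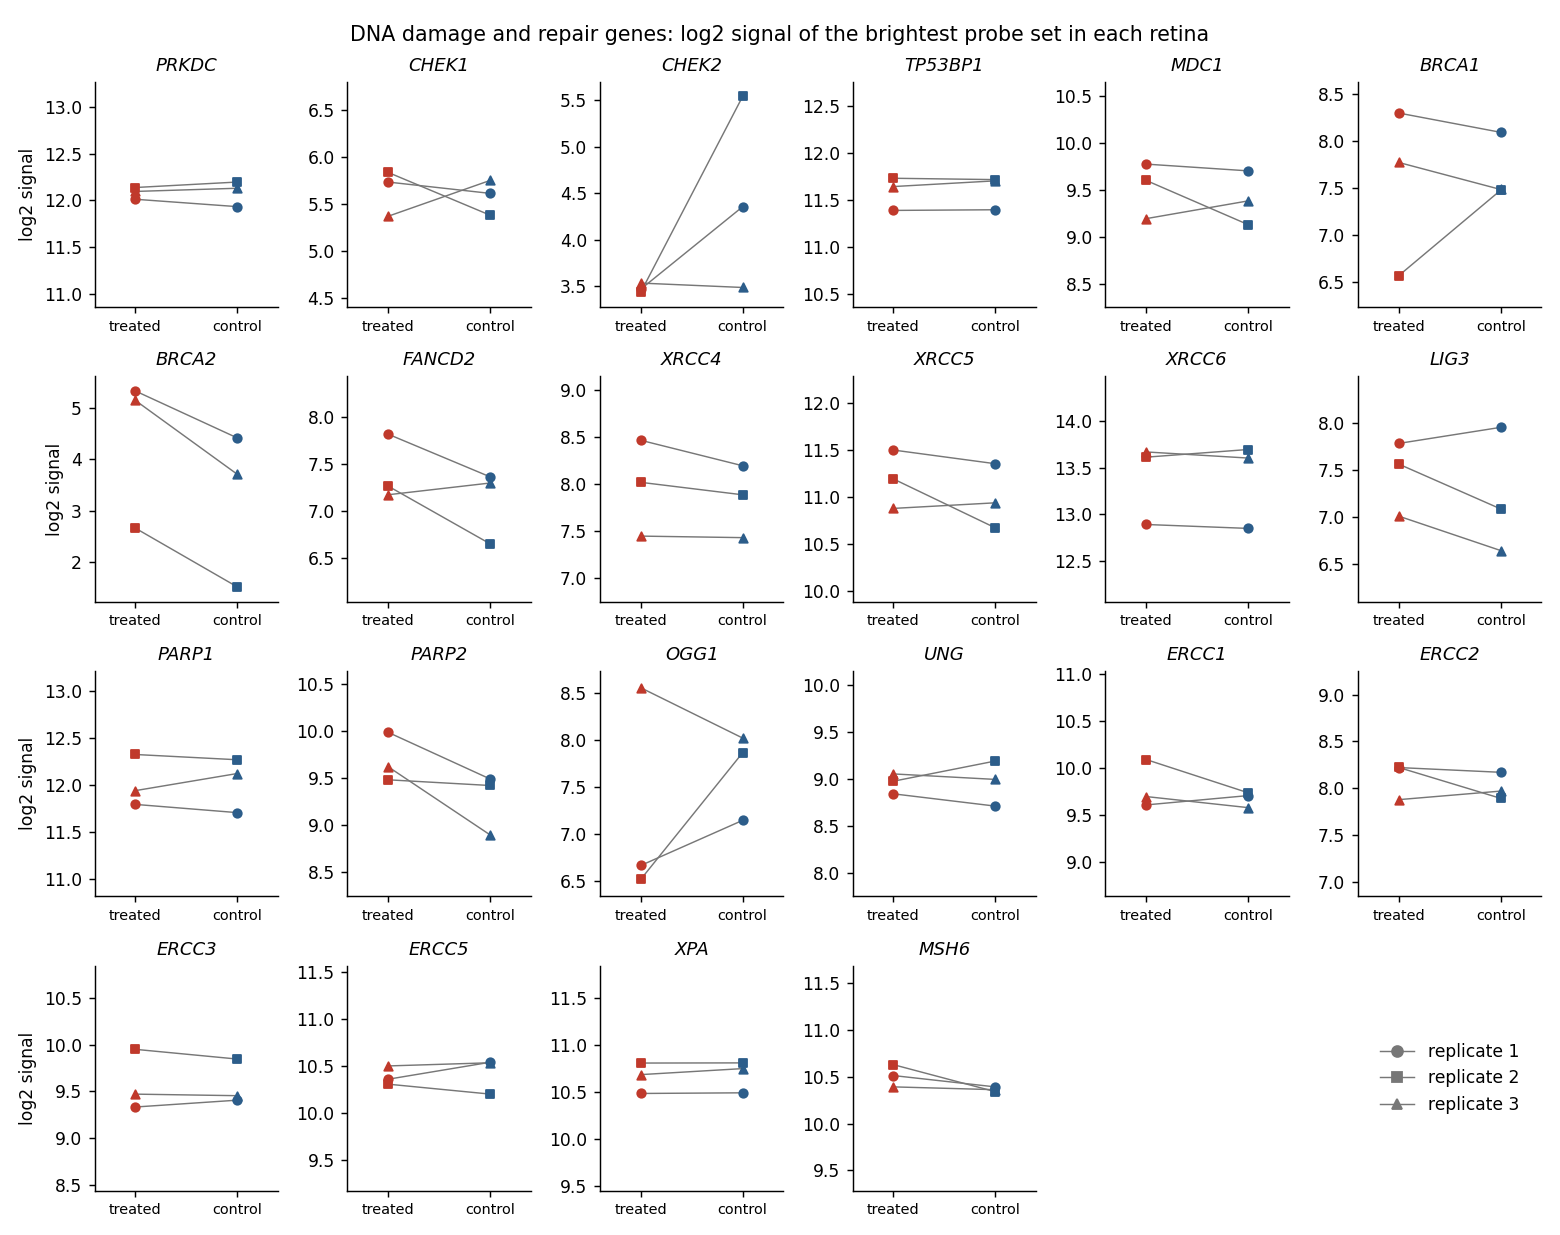
Log2 signal of each of the 22 genes in the 3 treated and the 3 control retinas, each panel 1 gene with its own log2 axis, and lines joining the retinas of a replicate. The values run from 1.52 (BRCA2) to 13.69 (XRCC6), and the lines are nearly flat for bright genes such as XRCC6 and PRKDC. At the brightest probe sets, which are shown, only the groups of MSH6 do not overlap.

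Of the 4 end joining genes 3 were measured, and the Ku genes were among the brightest of the list. XRCC6, the smaller Ku subunit, had the highest signal of the list, with 12.89, 13.61 and 13.67 in treated retinas and 12.85, 13.69 and 13.60 in control retinas. Replicate 1 was lower than the other replicates in both retinas, so the means of the pairs were 12.87, 13.65 and 13.63, while the retinas of a pair were almost level. The interval of its log2 fold change was −0.20 to 0.22. A dimmer probe set of XRCC6 was uneven, with 11.89, 8.45 and 9.94 in treated retinas and 11.80, 10.32 and 9.07 in control retinas, a log2 fold change of −0.30 ± 0.43 (SE). XRCC5, the larger Ku subunit, read 11.50, 11.19 and 10.88 in treated retinas and 11.35, 10.67 and 10.94 in control retinas. Its log2 fold change was 0.20 ± 0.125 (SE) with an adjusted p of 0.757, and a second probe set gave 0.01. Without replicate 3 the log2 fold change of XRCC5 was 0.33 with an unadjusted limma p of 0.0433. XRCC4, the partner of the ligase that closes the break, read 8.46, 8.02 and 7.44 in treated retinas and 8.19, 7.88 and 7.43 in control retinas. It was above its control in 3 of 3 pairs, with a log2 fold change of 0.14 ± 0.189 (SE). A second probe set of XRCC4, of similar signal, did not share that direction. Its pairs differed by 0.16, −0.82 and 0.78, and the log2 fold change was 0.04 ± 0.308 (SE).

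Base excision and single-strand break repair, with 5 of 9 genes measured, held the only gene with an unadjusted p under 0.05 at its brightest probe set. PARP2 encodes a poly(ADP-ribose) polymerase that marks single-strand breaks for repair. Its log2 signals were 9.99, 9.48 and 9.62 in treated retinas and 9.49, 9.42 and 8.90 in control retinas. The treated retina was above its control in 3 of 3 pairs, by 0.50, 0.06 and 0.73, and the groups overlapped narrowly because the treated retina of replicate 2 lay just below the control retina of replicate 1. The fold was 1.35 with a 95% confidence interval of 1.05 to 1.72, an unadjusted limma p of 0.0235 and an adjusted p of 0.716.

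The other probe sets of PARP2 did not show the same difference. One read 9.09, 8.83 and 8.59 in treated retinas and 9.17, 8.54 and 8.52 in control retinas, a log2 fold change of 0.09. Another read 6.51, 6.49 and 7.41 in treated retinas and 6.66, 6.84 and 7.23 in control retinas, a log2 fold change of −0.10. With the mean over its probe sets the log2 fold change of PARP2 was 0.14, with an unadjusted p of 0.378 in the same limma fit. Without the pairing the unadjusted limma p was 0.112. At the brightest probe set it was 0.119 without replicate 1 and 0.141 without replicate 3.

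PARP1, the main damage-activated polymerase of this family, was bright and even, with 11.79, 12.33 and 11.94 in treated retinas and 11.71, 12.27 and 12.12 in control retinas. The interval of its log2 fold change was −0.23 to 0.21. LIG3, the ligase of single-strand break repair and of mitochondrial DNA, read 7.78, 7.56 and 7.01 in treated retinas and 7.95, 7.09 and 6.64 in control retinas, with a log2 fold change of 0.22 ± 0.256 (SE). Another probe set of LIG3 read 6.98, 3.42 and 5.91 in treated retinas and 5.88, 6.10 and 6.01 in control retinas. Replicate 2 was far lower in the treated retina there, and the log2 fold change was −0.56 ± 0.735 (SE).

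The glycosylases remove damaged bases. OGG1, which excises oxidised guanine, read 6.67, 6.52 and 8.56 in treated retinas and 7.15, 7.87 and 8.03 in control retinas. Treated retinas were below their controls in replicates 1 and 2 and above in replicate 3, and the log2 fold change was −0.43 ± 0.357 (SE) with an adjusted p of 0.81. Without replicate 3 it was −0.92 with an unadjusted limma p of 0.0435, and without replicate 2 it was 0.03. A second probe set of OGG1 read 6.54, 7.25 and 6.52 in treated retinas and 7.03, 6.68 and 7.27 in control retinas. Its log2 fold change was −0.22 ± 0.353 (SE), but replicates 2 and 3 had the opposite sign to the brightest probe set. UNG, which excises uracil, read 8.84 to 9.06 in treated retinas and 8.71 to 9.19 in control retinas, and the interval of its log2 fold change was −0.34 to 0.32.

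In nucleotide excision repair 5 of 6 listed genes were measured, and at the brightest probe sets their log2 fold changes lay between −0.04 and 0.12. XPA, which verifies the lesion, read 10.48, 10.81 and 10.69 in treated retinas and 10.49, 10.81 and 10.75 in control retinas. It was below its control in 3 of 3 pairs, but by so little that the log2 fold change was −0.02 ± 0.0934 (SE). ERCC1, a subunit of the nuclease that cuts 5′ of the lesion, read 9.60, 10.09 and 9.69 in treated retinas and 9.70, 9.73 and 9.57 in control retinas, with an interval of −0.17 to 0.42. The groups overlapped for both.

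ERCC2 and ERCC3, the helicases of the transcription factor TFIIH that open the helix, had log2 fold changes of 0.10 ± 0.185 (SE) and 0.02 ± 0.114 (SE). ERCC2 read 8.22, 8.22 and 7.88 in treated retinas and 8.17, 7.89 and 7.97 in control retinas. ERCC3 read 9.33, 9.95 and 9.47 in treated retinas and 9.41, 9.85 and 9.46 in control retinas. The groups overlapped for both helicases. ERCC5, the nuclease that cuts 3′ of the lesion, read 10.36, 10.31 and 10.50 in treated retinas and 10.54, 10.20 and 10.54 in control retinas, with a log2 fold change of −0.04 ± 0.105 (SE).

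Dimmer probe sets of ERCC3 and ERCC5 spread more widely. That of ERCC3 lay at 7.72 or below in treated retinas, lowest in replicate 2, and read 7.76, 7.12 and 6.54 in control retinas, a log2 fold change of −0.37 ± 0.337 (SE). One of ERCC5 read 8.53, 8.02 and 7.98 in treated retinas and 8.28, 7.76 and 7.58 in control retinas. It was higher in 3 of 3 pairs with overlapping groups, and the log2 fold change was 0.30 ± 0.178 (SE) with an adjusted p of 0.754. Another read 7.93, 6.55 and 7.72 in treated retinas and 7.58, 6.96 and 7.12 in control retinas, a log2 fold change of 0.18 ± 0.283 (SE). The remaining probe sets of ERCC5 gave −0.17 and −0.16, so the 5 estimates for this gene lay on both sides of 0.

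MSH6, which recognises mismatched bases, was the only gene of the list whose groups did not overlap at its brightest probe set. Its log2 signals were 10.51, 10.63 and 10.39 in treated retinas and 10.39, 10.34 and 10.36 in control retinas. The lowest treated retina and the highest control retina were almost level, and the pairs differed by 0.12, 0.29 and 0.03. The log2 fold change was 0.15 ± 0.103 (SE, n = 3 pairs) with an adjusted p of 0.782. A second probe set of MSH6 read 8.82, 6.15 and 7.07 in treated retinas and 8.78, 7.24 and 6.48 in control retinas, a log2 fold change of −0.15 ± 0.341 (SE). Among all named genes, 4.30% stood apart with treated retinas higher and 2.70% with treated retinas lower, against 1 and 0 of the 22.

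Counted by pairs at the brightest probe sets, 4 genes of the list were higher in 3 of 3 pairs (BRCA2, XRCC4, PARP2 and MSH6). In the other direction 1 was lower in 3 of 3 (XPA), where 19.3% of all named genes were higher and 13.6% lower. The other 17 differed in sign between pairs. For 20 of the 22 genes the range of the 3 pair means was larger than the size of the log2 fold change, CHEK2 and MSH6 being the exceptions, and the same held for 86.6% of all named genes. The median range of the pair means was 0.50 on the log2 scale.

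Genes with several probe sets gave a check within each array. Of the 41 probe sets, 3 had an unadjusted p under 0.05 in the limma fit, which is 7.32%, against 6.74% of all probe sets. They were the brightest of PARP2, higher in treated retinas, and the dimmer ones of PRKDC and TP53BP1, lower. Of the 11 genes with several probe sets, 5 had the same sign at all of them and 6 did not (ERCC3, ERCC5, LIG3, MSH6, PARP2 and XRCC6). The gap between the highest and lowest log2 fold change of a gene's probe sets ran from 0.102 to 0.785.

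**Figure D4:**
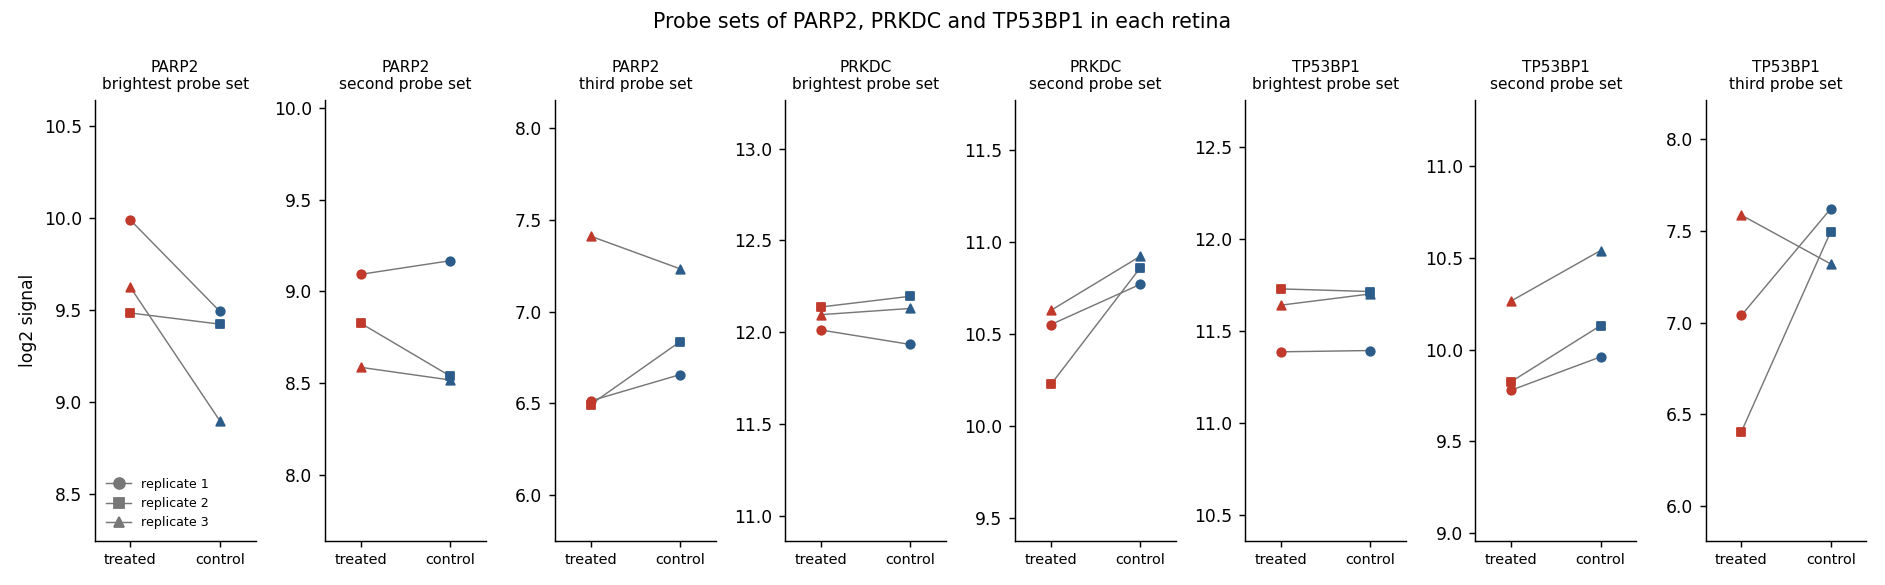
Log2 signal in the 3 treated and the 3 control retinas at each probe set of PARP2, PRKDC and TP53BP1, from brightest to dimmest, with lines joining the retinas of a replicate. The treated retinas are higher in all pairs at the brightest probe set of PARP2 and lower in all pairs at the second probe sets of PRKDC and TP53BP1, and the brightest probe sets of PRKDC and TP53BP1 are level.

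The wider DNA damage and repair machinery was described with 119 further genes, of which 91 were measured. At an unadjusted p under 0.05, 5 were higher in treated retinas (DDB2, TDP2, PARP3, FANCL and MLH3) and 2 were lower (RBBP8 and FANCI), where the shares over all named genes were 5.02% and 3.01%, and 0 passed after adjustment. The log2 fold change was above 0 for 46 of the 91, against 55.5% of all named genes, with a median of 0.014. The counts at that threshold lay close to the shares of the whole array. Of all named genes, 19.3% were higher in 3 of 3 pairs and 13.6% lower. Of the 91 other repair genes, 13 were higher in 3 of 3 pairs and 18 lower.

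The largest statistic among them belonged to RBBP8, whose product CtIP starts resection of broken ends. It had log2 signals of 10.98, 12.07 and 12.31 in treated retinas and 11.48, 12.84 and 12.80 in control retinas, lower in 3 of 3 pairs, with a log2 fold change of −0.59 ± 0.0968 (SE) and an adjusted p of 0.147. DDB2, a p53 target that recognises ultraviolet lesions, read 7.99, 8.68 and 8.97 in treated retinas and 6.93, 6.73 and 7.83 in control retinas. Every treated retina lay above every control retina, and the log2 fold change was 1.38 ± 0.239 (SE) with an adjusted p of 0.185. DDB1, its partner in the damage-binding complex, was not analysed here.

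FANCI, the partner of FANCD2, read 9.65, 10.34 and 10.20 in treated retinas and 9.93, 10.83 and 10.65 in control retinas, with a log2 fold change of −0.41 ± 0.103 (SE) and an adjusted p of 0.536. TDP2, which frees break ends from trapped topoisomerase, read 11.52, 11.64 and 11.17 in treated retinas and 11.18, 11.32 and 10.89 in control retinas. Its log2 fold change was 0.32 ± 0.088 (SE) with an adjusted p of 0.61.

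The p53 target genes can be switched on by p53, which the damage kinases stabilise, and 26 of 30 were measured. The activity of these kinases and of p53 was not measured here. At an unadjusted p under 0.05, 8 were higher in treated retinas (DDB2, GADD45A, BAX, CCNG1, PHLDA3, FAS, CDKN1A and BBC3) and 1 was lower (TP53INP1, at a dim probe set), where 5.02% and 3.01% of all named genes did so. After adjustment 0 passed, the smallest adjusted p being 0.185. The log2 fold change was above 0 for 21 of the 26, against 55.5% of all named genes, with a median of 0.212, and the median within replicates 1, 2 and 3 was 0.230, 0.324 and 0.323. BAX, DDB2, FAS and MDM2 are among genes that the study itself named from these samples, so the list is not independent of them, and DDB2 is counted in both lists.

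GADD45A, a stress-induced growth arrest gene, read 10.92, 12.44 and 10.73 in treated retinas and 9.46, 11.39 and 10.31 in control retinas, a log2 fold change of 0.98 ± 0.181 (SE) with an adjusted p of 0.231. Its other probe sets gave −0.02 and −0.45. BAX, which permeabilises mitochondria in apoptosis, read 8.85, 10.11 and 9.72 in treated retinas and 8.28, 9.28 and 9.18 in control retinas, a log2 fold change of 0.64 ± 0.13 (SE) with an adjusted p of 0.336. CCNG1, which encodes cyclin G1, read 12.45, 12.68 and 12.17 in treated retinas and 12.02, 12.03 and 11.87 in control retinas, and the groups did not overlap. All 3 genes were higher in 3 of 3 pairs.

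**Figure D5:**
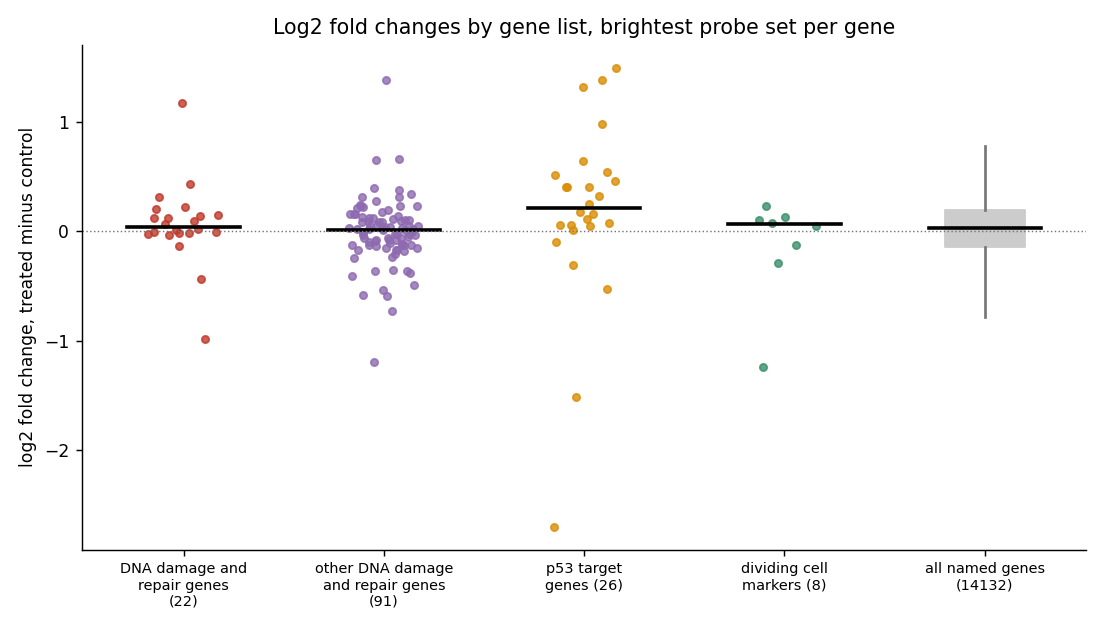
Log2 fold change (treated minus control retina) in 4 lists, each point 1 measured gene and each thick line a median, beside all named genes (box from the 25% to the 75% quantile, whiskers at 5% and 95%). The medians of the 22 signalling and repair genes, 0.040, and of the 91 other repair genes, 0.014, lie near that of all named genes, 0.032, and that of the 26 p53 target genes is 0.212.

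Markers of other cells were measured on the same arrays. The 9 measured microglia and macrophage genes had summed linear signals of 2804 to 3225 in treated and 2355 to 2704 in control retinas, without overlap. At an unadjusted limma p under 0.05, 4 of the 9 were higher, where 5.02% of all named genes were higher and 3.01% lower. Of the 9, 6 had a log2 fold change above 0 and 3 below. The 6 measured blood leukocyte genes summed to 440 to 663 in treated retinas and 221 to 561 in control retinas, which overlapped. Of these, 2 of 6 were higher at an unadjusted limma p under 0.05. The log2 fold change was above 0 for 5 of the 6 and below 0 for CD79A, with −1.61. None of the 6 had a confidence interval within a 2-fold change. The dimmest were NKG7, CD79A and MS4A1, with mean log2 signals of 2.59, 4.43 and 4.90. The 4 measured retinal ganglion cell genes summed to 16332 to 20276 in treated retinas and 13811 to 17182 in control retinas. At an unadjusted p under 0.05 in limma, 3 of 4 were higher.

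Markers of rods and of Müller glia, the supporting cells of the retina, were counted as well. The 5 measured rod genes were below their controls in 3 of 3 pairs, as were 13.6% of all named genes. Of the 5, 2 were lower at an unadjusted limma p under 0.05, against 3.01% of all named genes. The 5 rod genes summed to 130531 to 166536 in treated retinas and 152378 to 178887 in control retinas. Of the 5 measured Müller glia genes 3 were lower at that threshold and 1 was higher, where 5.02% of all named genes were higher. GLUL, KCNJ10 and RLBP1 were lower, with log2 fold changes of −0.28, −0.54 and −0.45, and SLC1A3 was higher with 0.58. The sums of the 5 Müller glia genes were 52472 to 69980 in treated retinas and 56465 to 71420 in control retinas, which overlapped. No marker gene passed after adjustment, and none was at the lowest signal the processing allows. The part of these markers in the values of the repair genes and of the p53 target genes was not tested.

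Because recombination, checkpoint and Fanconi genes are expressed most in cycling cells, genes of dividing cells were counted too. Of 12, 8 were measured, and 0 were higher or lower at an unadjusted p under 0.05 in the limma fit. Over all named genes 5.02% were higher and 3.01% lower. Of the 8, 5 had a log2 fold change above 0, against 55.5% of all named genes, and the median was 0.063. Within replicates 1, 2 and 3, however, the median of these 8 genes was below 0, at −0.032, −0.067 and −0.204. Their summed linear signal was 1897 to 2406 in treated retinas and 2133 to 2375 in control retinas, so the groups overlapped. AURKB, a mitotic kinase, read 8.66, 8.72 and 8.49 in treated retinas and 8.76, 9.20 and 8.78 in control retinas, a log2 fold change of −0.29 with an adjusted p of 0.752. The groups did not overlap at this probe set, though a much dimmer one gave 0.92. CCNB2, a mitotic cyclin, read 2.93 to 4.70 in treated retinas and 4.14 to 5.56 in control retinas, a log2 fold change of −1.24 with an adjusted p of 0.754. CCNA2, the cyclin of S phase, read 9.56, 9.41 and 9.20 in treated retinas and 9.45, 9.54 and 9.56 in control retinas, a log2 fold change of −0.13. AURKA, another mitotic kinase, read 8.78, 9.44 and 9.01 in treated retinas and 8.67, 8.87 and 9.30 in control retinas, a log2 fold change of 0.13. The groups overlapped for CCNB2, CCNA2 and AURKA.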

How the data were processed

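RNA was labelled with a 3′ in vitro transcription kit and hybridized to Affymetrix arrays with 1 color. The authors deposited log2 signals of MAS 5.0, which summarises each probe set within its array and scales arrays to a common mean. The sources used here do not give the MAS5 version. Detection calls were not used, and no depth exists for arrays, whose number limits the precision.

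The 6 columns were mapped to samples by their labels. For each of 52024 probe sets, treated minus control was fitted with limma 3.58.1 in R 4.3.3 (lmFit, then eBayes with a trend in the variance prior), with the replicate number as a block. The methods of the study pair both retinas of a monkey, and the correlations between same-numbered arrays, after subtraction of the group means, were 0.357, 0.137 and 0.161, against −0.243 to 0.104 between numbers. Adjusted p-values are Benjamini-Hochberg values over the whole array. The fitting step was tested on simulated data drawn with the fit's own variances. That test cannot show whether the variance prior suits these data. Neither a filter on dim probe sets nor a further normalization was applied. Nothing says whether the retinas were processed on separate days. The limma p-values combine the spread between these 3 pairs with the variance prior, so they do not measure the spread of the pairs alone.

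Genes were named from the platform annotation (24956 probe sets with 1 symbol, 361 with several, which were not named, and 26707 with none), updated by gene identifier with a RefSeq gene table (assembly T2T-MMU8v2.0) that held 98.6% of those with 1 symbol. A gene had its probe set of highest mean signal. Named with their values were the measured members of the list, their other probe sets where the sign was opposite, the log2 fold change was more than 1 away or the unadjusted p was under 0.05, and 4 genes of each other list with the largest absolute statistic. Some further probe sets and marker genes, chosen after their values were seen, are given for comparison. The members and lists were chosen with earlier results of these data known. Lists are given as counts and medians beside all named genes, with no test of the list. Alternatives were no pairing, quantile normalization, arrays centred on their median, no variance trend, a filter at the median signal of probe sets, the methods' t-test, the mean over probe sets, values under 5 raised to 5, and each replicate left out. Python 3.11.15 was used with pandas 2.3.3 for tables and matplotlib 3.10.9 for plots.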

Additional observations from a re-analysis of the deposited data

How the results depend on the processing

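Under all alternatives tried, 0 of the signalling and repair genes passed at an adjusted p under 0.05 in limma or in the methods' t-test, and the lowest adjusted p of any of them was 0.0732, for PARP2 without replicate 2. The count higher at an unadjusted p under 0.05, 1 as reported, was 0 with no replicate block, with the mean over probe sets and with values under 5 raised to 5, and 0 to 1 with a replicate left out. The 1 gene was not always PARP2: it was BRCA2 without the variance trend (0.00608) and in the methods' t-test (0.0165), and XRCC5 without replicate 3 (0.0433). The count lower was 0, and 0 to 1 with a replicate left out, OGG1 without replicate 3. Their median log2 fold change of 0.040 was 0.14 with arrays centred on the median and 0.025 to 0.0995 with a replicate left out.

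PARP2 lost its unadjusted limma p under 0.05 without the replicate block (0.112), without the variance trend (0.126), with the mean over probe sets (0.378), with values under 5 raised to 5 (0.0901), and without replicate 1 (0.119) or replicate 3 (0.141). In the methods' t-test its unadjusted value was 0.160. Centring added the same amount to all genes, whose median was 0.129 after it and 0.032 before. Signs of genes with no call changed for 2 of the 22 under quantile normalization, 6 under centring, 4 with the mean over probe sets, and 2, 8 and 4 without replicate 1, 2 and 3.

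Of the other repair genes, 5 higher became 2 with no replicate block, 2 without the variance trend and 3 to 7 with a replicate left out. The 2 lower became 0 with no replicate block, 1 with centring, 6 in the t-test and 1 with the mean over probe sets. Without replicate 2, 1 of them passed after adjustment, and the range over replicates left out was 0 to 1. Their median was 0.11 with centring. Of the p53 target genes, 8 higher became 4 with no replicate block and 5 to 8 with a replicate left out, 5 without replicate 1. The 1 lower became 2 without the trend, 0 with the filter, 0 in the t-test, 3 with the mean over probe sets, 0 with values raised to 5 and 0 to 1 with a replicate left out. After adjustment 0 to 1 passed with a replicate left out. Their median was 0.286 with quantile normalization, 0.309 with centring and 0.286 with the filter. Of the dividing cell genes, 1 was lower without the trend and 1 in the t-test, and their median was 0.159 with centring, 0.181 with the mean over probe sets and −0.0675 to 0.0581 with a replicate left out. The cause was not tested for any of these. Of all probe sets 58 passed after adjustment, against 0 with no replicate block, without the variance trend, in the t-test and with values raised to 5, 73 with quantile normalization, 81 with centring, 75 with the filter, 35 with the mean over probe sets, and 17, 222 and 135 without replicate 1, 2 and 3. The filter left 19 of the 22 genes. Signals near the bottom of the scale limit CHEK1, CHEK2 and BRCA2.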
